A study of Rattus norvegicus with 9 samples.

Results

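Carbonic anhydrases are zinc enzymes that turn carbon dioxide and water into bicarbonate and a proton, and back. In nervous tissue they set how fast the pH inside and outside cells follows metabolic and synaptic activity, and they supply the bicarbonate that neurons pass through GABA and glycine receptor channels and that glia carry across their membranes. The family holds catalytic isoforms in the cytosol, in mitochondria, on the cell surface and in secretions, and related proteins that keep the fold without the enzyme activity. The genes described here were the rows of the deposited expression table that carried a carbonic anhydrase name (Ca or Car followed by a number and, for some, a or b) and had a mean of at least 1 TPM (a length-scaled share of a sample's transcripts) over the 9 samples. Of 34890 loci in the table, 16 carried such a name and 12 of these reached the mean, so the members were selected on measured level but not on any difference between groups. The table writes some of the genes as Ca and some as Car, and its spelling is kept.

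RNA came from the ipsilateral side of the L3-L6 spinal cord of wild-type (WT) male Sprague Dawley rats in 3 groups of 3 samples, labelled as separate biological replicates. JA rats were sham-operated and were given normal saline by mouth. SNI rats had spared nerve injury, in which the tibial and common peroneal nerves are tied and cut and the sural nerve is left whole, and were given the same saline. PLM rats had the injury and were given paeoniflorin, a compound of peony root, with liquiritin, a compound of licorice root. The labels give 20.65 mg/mL paeoniflorin for each PLM sample, and 3.98, 3.99 and 3.100 mg/mL liquiritin for replicates 1, 2 and 3. The methods describe a single middle dose for this group, so these differing labels may not mark different doses. No group received the drugs without the injury. PLM versus SNI asks what the drug combination did in injured rats, SNI versus JA what the injury did, and PLM versus JA how treated injured rats differed from sham-operated rats. Each group enters a pair of these comparisons, so they are not independent of each other.

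TPM corrects for transcript length and gives every sample the same total, so levels can be compared between genes, and a rise in abundant RNAs lowers the values of all others. The 13 protein genes of the mitochondrial genome held 31.3% to 32.8% of all TPM in the PLM samples, 23.7% to 26.1% in the SNI samples and 25.3% to 32.8% in the JA samples. In PLM versus SNI, 85.0% of the 15474 loci tested had a log2 fold change below 0, with a median of -0.21. Differences of members are therefore given both as deposited and median-centred, where each sample was shifted so that its median log2 value over the loci tested was the same. All fold changes are log2 differences of TPM + 1, which makes changes at low TPM look smaller than they are. Calls were made at an adjusted p below 0.05 over all loci tested (limma, Benjamini-Hochberg). The depth of the samples is unknown, since TPM keeps no read counts.

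Carbonic anhydrase RNA was dominated by a cytosolic and a membrane isoform. Car2 had a mean of 114.4 TPM over the 9 samples and held 39.0% of the summed TPM of the 16 names, and Ca14 had 72.7 TPM and 24.8%. Ca4 followed with 29.8 TPM, Ca11 with 27.99, Car10 with 16.6, Ca5b with 7.07, Car7 with 6.39, Ca8 with 5.88, Ca3 with 4.08, Ca6 with 3.84, Ca12 with 2.14 and Ca13 with 1.72. The ranges of neighbours in this order did not overlap for Car2 and Ca14, Ca14 and Ca4, Ca11 and Car10, or Car10 and Ca5b. Ca4 and Ca11 did overlap, and Ca4 was the higher of them in only 3 of 9 samples. From Ca5b downward the ranges of neighbours all overlapped, although Ca6 was above Ca12 in 9 of 9 samples. Ca13 was the lowest member above the threshold of 1 TPM, and Car1 the highest name below it, at a mean of 0.521 TPM. Ca12 and Ca13 averaged below the threshold in PLM (0.997 and 0.990 TPM) and reached it through their JA and SNI values. They likewise entered the fit of PLM versus SNI through their SNI values.

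The 4 names below the threshold were at or near 0 in most samples. Car1, the main isoform of red blood cells, ranged from 0.06 to 1.35 TPM. Ca9, a membrane isoform known for its induction by low oxygen, ranged from 0 to 0.32 TPM, and Ca5a, the liver's mitochondrial isoform, from 0 to 0.21 TPM. Car15 was listed at 0 in all 9 samples. Car2, Ca3 (RefSeq Car3), Car1 and Ca13 (RefSeq Car13) lie side by side in that order in the RefSeq annotation of the rat genome (GRCr8), with 0 other protein-coding genes between them, and their levels here ran from 114.4 TPM for Car2 down to 0.521 for Car1.

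Members differed in how far they varied. The coefficient of variation over the 9 samples was lowest for Ca11 (12.7%), Ca14 (12.8%) and Ca8 (14.9%). It was highest for Ca13 (96.8%), Ca12 (57.6%), Ca6 (34.2%) and Ca4 (33.2%). The plot of TPM by group shows this contrast between the evenly expressed genes and those spread widely within or between groups.

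**Figure D1:**
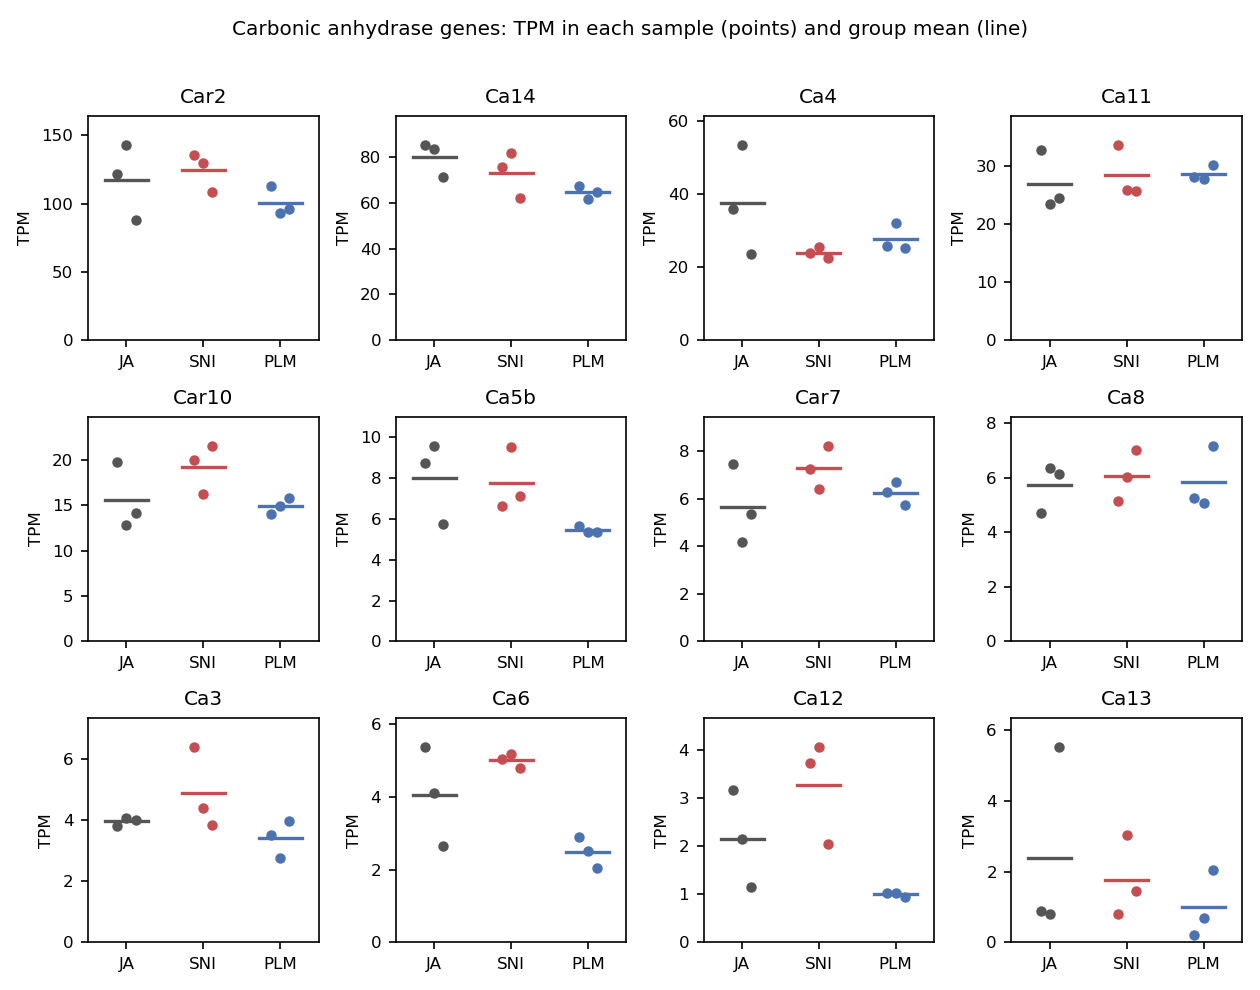
TPM (vertical axis, linear, from 0) of the 12 carbonic anhydrase genes in each of 3 JA, 3 SNI and 3 PLM samples (points), with the group mean as a line. The PLM points of Ca12 (0.95 to 1.02 TPM) and Ca6 (2.03 to 2.89 TPM) all lie below every SNI point, and Ca13 has 1 high sample in each group.

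Promoter sequences from RefSeq (GRCr8, the 250 bases before the gene start, 5′ to 3′ on the gene's strand) matched 7 of the 12 members. They are shown for the members with the furthest median-centred differences between PLM and SNI among those matched, Ca12 (RefSeq Car12; lower in PLM) and Ca4 (RefSeq Car4; higher in PLM). Capitals mark the hypoxia element, read as ACGTG or GCGTG, and the GC box, read as GGGCGG, each searched on both strands, and the letters of the motifs can overlap.
Ca12 promoter, chr8:76169565-76169814, plus strand: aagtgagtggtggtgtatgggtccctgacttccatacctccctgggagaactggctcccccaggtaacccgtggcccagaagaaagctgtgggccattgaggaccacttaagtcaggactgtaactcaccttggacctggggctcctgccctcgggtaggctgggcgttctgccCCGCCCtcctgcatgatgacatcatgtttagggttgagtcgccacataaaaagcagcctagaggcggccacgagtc
Ca4 promoter, chr10:70325108-70325357, plus strand: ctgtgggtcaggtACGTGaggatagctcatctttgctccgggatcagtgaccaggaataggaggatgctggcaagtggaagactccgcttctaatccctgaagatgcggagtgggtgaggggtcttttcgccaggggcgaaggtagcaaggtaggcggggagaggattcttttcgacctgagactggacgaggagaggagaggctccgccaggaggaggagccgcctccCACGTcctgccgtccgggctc
The Ca12 window held 1 GC box, starting 76 bases before the gene start, and no hypoxia element, which says only that these letters are not in this window. The Ca4 window held 2 hypoxia elements, starting 237 and 21 bases before the gene start, and no GC box. Over all 33469 promoters of the same length, 36.7% held a hypoxia element and 30.5% a GC box. Among the 7 members matched, 4 held the former and 3 the latter. The Ca12 window was 58.4% GC with 7 CpG and the Ca4 window 60.4% GC with 14 CpG, beside medians of 51.2% and 5 over all promoters.

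In PLM versus SNI, 2 of the 12 members were called, both lower in PLM. These were Ca12, a surface enzyme anchored in the membrane with its active site outside the cell, and Ca6, the secreted isoform best known from saliva. Both had low levels. Over all loci tested, 13.6% were called lower and 0.246% higher, so 2 of 12 is close to the share in the whole table. With the study's thresholds (unadjusted p below 0.05 and a log2 fold change beyond 1 in size) 1 member, Ca12, was past them downward, beside 1.42% of all loci.

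Ca12 measured 3.73, 4.05 and 2.04 TPM in SNI replicates 1, 2 and 3 and 1.02, 1.02 and 0.95 TPM in PLM. In JA it measured 3.16, 2.14 and 1.14 TPM. The PLM samples lay close together at the bottom, below every JA and SNI sample, while JA and SNI overlapped each other. Between SNI and PLM the log2 fold change was -1.06 (SE 0.21, 95% interval -1.58 to -0.55, adjusted p = 0.0314), and the ratio of the mean TPM was 0.304. Median-centred, it was -0.82 (adjusted p = 0.143) and no longer called. With each of the 6 samples left out in turn, its adjusted p was above 0.05 except without SNI replicate 3 (0.0175), and reached 0.104 without PLM replicate 1.

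Ca6 measured 5.04, 5.16 and 4.80 TPM in SNI and 2.89, 2.52 and 2.03 TPM in PLM. The JA samples spread from 2.65 to 5.36 TPM and overlapped both groups. The fall in PLM versus SNI was by 0.79 on the log2 scale (SE 0.12, adjusted p = 0.0176), with a ratio of mean TPM of 0.496. Median-centred, the log2 fold change was -0.55 (adjusted p = 0.141) and Ca6 was not called. The adjusted p as deposited was above 0.05 without PLM replicate 2 (0.0693), SNI replicate 1 (0.0673) or SNI replicate 3 (0.0503).

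The remaining catalytic isoforms on the cell surface did not pass the test. Ca14, a membrane isoform of neurons and their axons, measured 75.93, 81.68 and 62.11 TPM in SNI and 67.56, 61.83 and 64.91 TPM in PLM. The groups overlapped, and the log2 fold change was -0.17 (SE 0.11, adjusted p = 0.291) as deposited and 0.08 (adjusted p = 0.757) median-centred, so its sign depended on the scale. Ca4, which is anchored to the blood-facing surface of brain capillary endothelium, measured 23.77, 25.54 and 22.52 TPM in SNI and 25.77, 32.00 and 25.35 TPM in PLM. It was the member with the largest difference upward, at 0.20 (SE 0.11, adjusted p = 0.219) as deposited and 0.44 (SE 0.11, unadjusted p = 0.00506, adjusted p = 0.128) median-centred.

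Of the cytosolic isoforms, Car2, the abundant fast enzyme of oligodendrocytes and other glia, measured 135.59, 130.12 and 108.45 TPM in SNI and 113.08, 93.36 and 96.05 TPM in PLM. Its log2 fold change was -0.30 (SE 0.11, adjusted p = 0.107) as deposited and -0.06 (adjusted p = 0.859) median-centred. Car7, the isoform of neurons that supplies bicarbonate beside GABA receptors, measured 7.26, 6.41 and 8.21 TPM in SNI and 6.28, 6.69 and 5.75 TPM in PLM. The groups overlapped for both genes, and Car7 stood at -0.19 (adjusted p = 0.234) as deposited and 0.05 (adjusted p = 0.850) median-centred.

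Ca3, the isoform of skeletal muscle and fat, measured 6.38, 4.39 and 3.83 TPM in SNI and 3.50, 2.77 and 3.97 TPM in PLM, with a log2 fold change of -0.40 (SE 0.19, adjusted p = 0.177) as deposited and -0.15 (adjusted p = 0.722) median-centred. Without SNI replicate 1, the highest of all 9 samples, it was -0.22 (adjusted p = 0.379) as deposited. Ca13, a further cytosolic isoform, measured 0.79, 3.05 and 1.44 TPM in SNI and 0.22, 0.70 and 2.05 TPM in PLM. It had the widest interval of the family, from -1.53 to 0.54 around a log2 fold change of -0.49 (adjusted p = 0.419) as deposited, and stood at -0.25 (adjusted p = 0.807) median-centred.

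Ca5b, the mitochondrial isoform of most tissues, measured 6.64, 9.51 and 7.10 TPM in SNI and 5.67, 5.35 and 5.36 TPM in PLM. No PLM value reached the lowest SNI value, yet the log2 fold change of -0.42 (SE 0.13, unadjusted p = 0.0169) had an adjusted p of 0.0755. Median-centred it was -0.18 (adjusted p = 0.581). Ca5b is encoded in the nucleus, and its values were lower in PLM than in SNI while the share of the mitochondrial genome's own RNA was higher.

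Among the related proteins without activity, Ca8 binds the inositol trisphosphate receptor Itpr1, and Car10 and Ca11 are secreted ligands of neurexins. Ca11 measured 33.60, 25.85 and 25.72 TPM in SNI and 28.06, 27.81 and 30.08 TPM in PLM, with a log2 fold change of 0.02 (95% interval -0.25 to 0.30, adjusted p = 0.896) as deposited and 0.27 (unadjusted p = 0.0357, adjusted p = 0.256) median-centred. Car10 measured 19.99, 16.28 and 21.53 TPM in SNI and 14.01, 14.87 and 15.82 TPM in PLM. The Car10 groups did not overlap, but the log2 fold change of -0.34 (SE 0.11) had an adjusted p of 0.0839, and it was -0.10 (adjusted p = 0.704) median-centred. Ca8 measured 5.16, 6.04 and 7.01 TPM in SNI and 5.27, 5.07 and 7.17 TPM in PLM, with -0.05 (adjusted p = 0.817) as deposited and 0.19 (adjusted p = 0.570) median-centred.

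Over the family, 10 of 12 members had a log2 fold change below 0 as deposited in PLM versus SNI, with a member median of -0.32 beside -0.21 over all loci. Median-centred, 7 of 12 were below 0, with a median of -0.08 beside 0.04. At an unadjusted p below 0.05, 5 members were lower and none higher as deposited, beside 35.8% and 1.28% of all loci. Median-centred, 2 were lower and 2 higher at that p, beside 6.89% and 10% of all loci, and limma called 0 members and 0.814% of all loci after adjustment. As deposited, 4 members (Ca12, Ca6, Ca5b and Car10) were lower in PLM with no overlap between the groups, beside 41.9% of all loci. Median-centred, Ca12 and Ca6 were lower without overlap, beside 9.73% of all loci, and Ca4 and Ca11 higher, beside 14.1%. The summed TPM of the 16 names was 254.4 to 274.8 in PLM and 275.7 to 325.4 in SNI, with JA from 252.4 to 348.2.

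**Figure D2:**
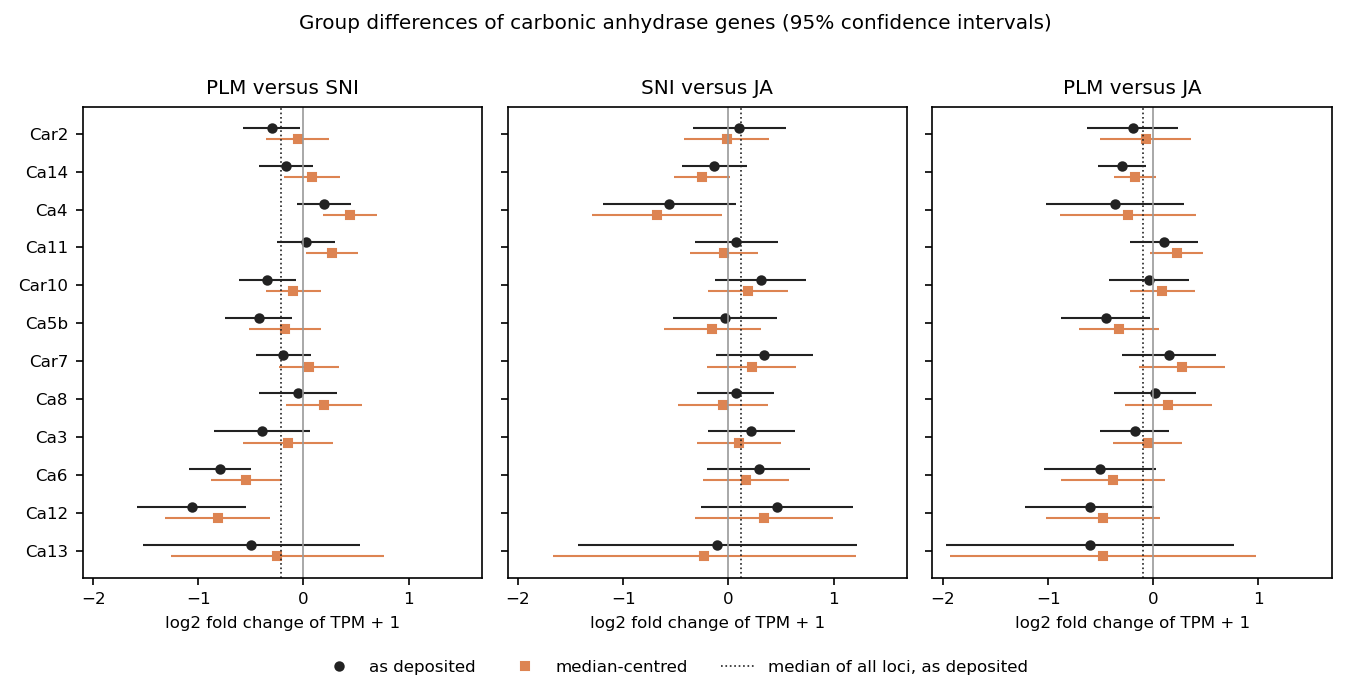
Log2 fold change of TPM + 1 (horizontal axis) of the 12 members in the 3 comparisons, as deposited (circles) and median-centred (squares), with 95% confidence intervals as bars and the median of all loci as deposited as a dotted line. In PLM versus SNI the intervals of Ca12 (-1.58 to -0.55) and Ca6 (-1.08 to -0.50) lie below 0 and below the median of -0.21, and median-centring moves every member to the right.

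In SNI versus JA, limma called 0 of the 12 members, as deposited and median-centred, and 0% of the 15557 loci tested on either scale. At an unadjusted p below 0.05 there were 0 members as deposited, beside 7.10% of all loci in either direction, and 1 lower median-centred, beside 3.13%. This was Ca4, which measured 35.88, 53.45 and 23.73 TPM in JA and 22.52 to 25.54 TPM in SNI. The high JA samples were replicates 1 and 2, while JA replicate 3 lay within the SNI range. The log2 fold change of Ca4 was -0.56 (SE 0.27, adjusted p = 0.614) as deposited and -0.68 (unadjusted p = 0.0352, adjusted p = 0.889) median-centred. Without JA replicate 2 it was -0.28 (adjusted p = 0.806) as deposited.

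Ca12 had the largest difference upward in SNI versus JA, at 0.46 (SE 0.30, adjusted p = 0.625), but its JA and SNI samples overlapped. Car7 stood at 0.34 (SE 0.19, adjusted p = 0.614), Car10 at 0.31 (SE 0.18, adjusted p = 0.614), Ca6 at 0.29 (SE 0.21, adjusted p = 0.637) and Ca3 at 0.22 (SE 0.17, adjusted p = 0.649). Car2 stood at 0.11 (SE 0.19, adjusted p = 0.824), Ca11 at 0.08 (SE 0.16, adjusted p = 0.856) and Ca8 at 0.07 (SE 0.15, adjusted p = 0.860), and these were -0.02, -0.04 and -0.05 median-centred. Median-centred, Ca12 stood at 0.34, Car7 at 0.22, Car10 at 0.18, Ca6 at 0.17 and Ca3 at 0.10. Below 0 as deposited were Ca4, Ca14 at -0.13 (SE 0.13, adjusted p = 0.698), Ca13 at -0.11 (SE 0.56, adjusted p = 0.943) and Ca5b at -0.03 (SE 0.21, adjusted p = 0.958), which were -0.25, -0.23 and -0.15 median-centred. The member median was 0.09, beside 0.12 over all loci. No member's groups were free of overlap as deposited, beside 13.8% of all loci in either direction, and median-centred Ca4 alone was lower in SNI without overlap, beside 6.87%.

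In PLM versus JA, limma again called 0 of 12 members on either scale, beside 0.0195% of the 15349 loci as deposited and 0.0130% median-centred. At an unadjusted p below 0.05 there were 2 members as deposited, both lower in PLM, beside 10.5% of all loci, and 0 median-centred, beside 9.98% in either direction. Ca14, at 85.34, 83.80 and 71.14 TPM in JA and 61.83 to 67.56 TPM in PLM, had a log2 fold change of -0.30 (SE 0.10, adjusted p = 0.370). Ca5b, at 8.72, 9.57 and 5.73 TPM in JA and 5.35 to 5.67 TPM in PLM, had -0.45 (SE 0.18, adjusted p = 0.412). Ca12, Ca14 and Ca5b were lower in PLM with no overlap, beside 15.7% of all loci, and median-centred no member was free of overlap in either direction, beside 16.4%.

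Ca12 stood at -0.60 (SE 0.26, adjusted p = 0.431) in PLM versus JA, Ca13 at -0.60 (SE 0.58, adjusted p = 0.707), Ca6 at -0.51 (SE 0.22, adjusted p = 0.448) and Ca4 at -0.36 (SE 0.27, adjusted p = 0.646). Median-centred, these were -0.48, -0.48, -0.38 and -0.24, and Ca14 and Ca5b were -0.17 and -0.33. Car2 stood at -0.20 (adjusted p = 0.696), Ca3 at -0.18 (adjusted p = 0.647) and Car10 at -0.04 (adjusted p = 0.945), which was 0.09 median-centred. Above 0 were Car7 at 0.15 (adjusted p = 0.775), Ca11 at 0.10 (adjusted p = 0.794) and Ca8 at 0.02 (adjusted p = 0.977), which were 0.27, 0.22 and 0.14 median-centred. Car2 and Ca3 were -0.07 and -0.05 on that scale. The JA values of these genes, in the order of replicates 1, 2 and 3, were 121.65, 143.04 and 88.06 TPM for Car2, 32.79, 23.48 and 24.55 for Ca11, and 19.72, 12.81 and 14.12 for Car10. For the low members they were 7.44, 4.17 and 5.34 TPM for Car7, 4.72, 6.36 and 6.13 for Ca8, 3.79, 4.08 and 4.01 for Ca3, and 0.88, 0.80 and 5.52 for Ca13. JA replicate 1 was thus the highest JA sample for Ca11, Car10 and Car7, and JA replicate 3 the lowest for Car2 and the highest for Ca13. JA was the group with the widest spread in family total (SD 50.8 TPM, against 26.9 in SNI and 10.5 in PLM, n = 3 each).

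Cell type markers moved with several of these values. In tissue RNA, fewer cells of a type and less RNA per cell cannot be told apart. The summed TPM of 14 astrocyte markers was 3096 to 3710 in PLM, 5715 to 6897 in SNI and 4245 to 6806 in JA, and 13 of the 14 were called lower in PLM versus SNI as deposited and 9 median-centred, with a median of -1.28 and -1.04. None of the 14 was at 0 in any sample. Ca12 ran beside them: it was lowest in PLM, and within JA both were highest in replicate 1 (3.16 TPM; markers 6806) and lowest in replicate 3 (1.14 TPM; 4245), with replicate 2 between them (2.14 TPM; 5796). Ca6 took the same order within JA, at 5.36, 4.11 and 2.65 TPM. Within SNI the order of the sum differed. Ca12 and Ca6 were highest in replicate 2 (4.05 and 5.16 TPM, marker sum 6229) and the sum in replicate 1 (6897). The abundant markers S100b and Aldoc were highest in SNI replicate 1, as were Aldh1l1, Slc1a2, Fgfr3 and Acsbg1. The other markers (Gfap, Aqp4, Slc1a3, Gja1, Sox9, Gjb6, Slc4a4 and Ntsr2) were highest in SNI replicate 2, as Ca12 and Ca6 were. The part of these markers in the Ca12 and Ca6 values was not tested.

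The 3 loci whose median-centred profile over the 9 samples was closest to that of Ca12, among 15503 loci, were Wnt7b, a secreted Wnt ligand, Slc1a3, the glial glutamate transporter, and Grin2c, an NMDA receptor subunit. Their root-mean-square differences from it were 0.12 on the log2 scale for each, against 0.42 for the spread of Ca12 about its own mean. Slc1a3 is itself on the astrocyte marker list. Mean levels in JA, SNI and PLM were 2.72, 4.34 and 1.54 TPM for Wnt7b, 36.6, 48.3 and 21.3 TPM for Slc1a3 and 5.66, 7.72 and 2.80 TPM for Grin2c, beside 2.15, 3.27 and 0.997 TPM for Ca12.

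Ca3 and Ca13 each had a sample that stood out together with markers of tissue outside the cord. In SNI replicate 1, where Ca3 was highest, the sum of 9 skeletal muscle markers was 220.1 TPM, against 29.5 to 68.1 elsewhere, leaving out Pvalb, which cord neurons also express, and muscle creatine kinase (Ckm) was 19.47 TPM, against 1.34 to 4.67. Of 8 adipocyte markers, Fabp4 was also far highest there, at 17.84 TPM against 3.18 to 7.42 elsewhere, while Cfd was at its lowest there (4.58 TPM, against 5.24 to 7.44). Ca13 was highest within each group in the sample with the most Schwann cell marker RNA, namely JA replicate 3 (5.52 TPM; 8294 summed over 8 markers), SNI replicate 2 (3.05; 4979) and PLM replicate 3 (2.05; 3781), while the other samples held 636 to 2051. The fibroblast markers Dcn (179.3, 98.4 and 59.0 TPM), Col1a1 (50.3, 36.5 and 18.3) and Lum (39.0, 22.2 and 9.33) were highest within their groups in the same samples. They were picked after their values were seen, and the sum of all 8 markers on their list was highest in SNI replicate 1 (1706 TPM) within SNI, not in replicate 2 (1591). Without JA replicate 3 the log2 fold change of Ca13 in SNI versus JA was 0.50 (adjusted p = 0.836) in place of -0.11, so its sign there rested on that sample. Their part in the Ca3 and Ca13 values was not tested.

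Ca4 was highest in JA replicate 2, which also held the highest sum of 8 endothelial and pericyte markers (750.2 TPM, against 501.5 to 660.1 elsewhere), and none of those markers was called in PLM versus SNI, where their median was 0.09 as deposited and 0.34 median-centred. Ca4 and the sum did not share an order elsewhere: PLM replicate 3 had the next highest sum (660.1) with 25.35 TPM of Ca4, JA replicate 1 the next highest Ca4 (35.88 TPM) with a sum of 567.5, and within SNI and within PLM the highest Ca4 and the highest sum were in different samples. Single markers were mixed. Within SNI, Cldn5, Tek, Cdh5 and Slco1a4 were highest in replicate 2, as Ca4 was, and Flt1, Vwf, Pdgfrb and Rgs5 in replicate 3. Within PLM, Cldn5 and Tek were highest in replicate 2, as Ca4 was. The PLM highs of Flt1 and Vwf were in replicate 1, and those of Cdh5, Slco1a4, Pdgfrb and Rgs5 in replicate 3. Car7 and Car10 ran beside the sum of 12 neuron markers within SNI. Replicate 3 was highest (neuron sum 3989), replicate 1 next (3758) and replicate 2 lowest (3169) for both genes, and JA replicate 1 was highest for both genes and for the sum (3423, against 1946 and 2247). The order within SNI is that of the abundant markers Nefl, Snap25, Tubb3 and Stmn2, and the other 8 of the 12 were highest in SNI replicate 1. Within PLM, Car7 took the order of the neuron sum (2961, 3266 and 2914 in replicates 1, 2 and 3), but Car10 was highest in replicate 3, where the sum was lowest. The sum of the 12 oligodendrocyte markers was higher in every PLM sample (50744 to 51743 TPM) than in any SNI sample (47057 to 49345), while Car2 was below its lowest SNI value in 2 of 3 PLM samples. What these markers add to each value was not tested.

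Genes that work with carbonic anhydrases were read out from the same fits, beside the 13.6% of all loci called lower and the median of -0.21 as deposited, and 0.04 median-centred. Of 20 bicarbonate and chloride transporters 10 were tested, and 2 were called lower in PLM versus SNI. Slc4a4, the sodium bicarbonate cotransporter of astrocytes, was 38.21, 39.16 and 30.48 TPM in SNI and 14.11, 12.42 and 11.69 TPM in PLM, and fell by 1.42 on the log2 scale (adjusted p = 0.00477), with a median-centred adjusted p of 0.0266. It is also 1 of the 14 astrocyte markers. Slc26a11, an anion transporter, fell by 0.38 (adjusted p = 0.0349), but its median-centred adjusted p was 0.429. The median of the 10 was -0.27 as deposited and -0.02 median-centred. The cotransporters that set the chloride level of neurons, Slc12a5 at -0.28 (adjusted p = 0.169) and Slc12a2 at -0.25 (adjusted p = 0.137), were not called.

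Of 15 genes tested among transporters, channels and helpers of proton and lactate movement, 5 were called lower as deposited and 0 median-centred, with medians of -0.37 and -0.12. They included Aqp4, the water channel of astrocyte endfeet, at -1.19 (adjusted p = 0.0138), and Slc9a3r1, a scaffold that binds sodium-proton exchangers, at -0.63 (adjusted p = 0.0343). Aqp4 is on the astrocyte list as well. Of 8 enzymes that use or need bicarbonate tested, 5 were called lower as deposited and 0 median-centred, with medians of -0.40 and -0.16. They included propionyl-CoA carboxylase (Pccb, -0.41, adjusted p = 0.0233), pyruvate carboxylase (Pc, -0.45, adjusted p = 0.0246) and acetyl-CoA carboxylase (Acaca, -0.54, adjusted p = 0.0275).

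Among 9 acid sensors tested, 1 was called lower, the potassium channel Kcnk1 at -0.51 (adjusted p = 0.0335), and 0 median-centred, with medians of -0.30 and -0.05. A further list held Itpr1 and the neurexins, which bind the related proteins, and the receptor phosphatases that carry a carbonic anhydrase-like domain, with their contactin ligands. Of its 9 genes tested, 3 were called lower and 0 median-centred, with medians of -0.34 and -0.10. They included contactin 1 (Cntn1, -0.48, adjusted p = 0.0197) and the receptor phosphatase Ptprz1 (-0.77, adjusted p = 0.0348). Itpr1, the partner of Ca8, stood at -0.31 (adjusted p = 0.0676). No gene of these lists was called higher, and none was called in SNI versus JA or PLM versus JA.

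Carbonic anhydrases were also among the proteins predicted from chemical structure as possible targets of paeoniflorin and liquiritin. Of the 11 isoforms on that list 9 were tested, and Ca12 and Ca6 were the 2 called lower in PLM versus SNI, with a list median of -0.40, beside 13.6% of all loci called lower and a median of -0.21. Median-centred, 0 of the 9 were called and the median was -0.15, beside 0.04 over all loci. Car1 and Ca5a, the others, were below the level tested. A transcript level says nothing of whether a compound binds or inhibits the enzyme.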

How the data were processed

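RNA sequencing libraries (Illumina TruSeq kit, total RNA) came from 9 rats' spinal cord samples in 3 groups of 3, assigned by sample title. According to the methods and the submitters' processing notes, the authors trimmed reads with fastp 0.19.5, mapped them with HISAT2 and quantified loci with StringTie. The notes name GRCh38.p13, a human build, while the identifiers are rat Ensembl genes, and the rat build is not given in the sources used here. The authors deposited TPM values with 2 decimals, and read depth and counting error are unknown.

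Groups were compared in pairs on log2(TPM + 1) with limma 3.58.1 in R 4.3.3 (variance trend, no covariate). Only loci averaging 1 TPM or more across the 6 samples of a comparison were fitted, and p was adjusted over all of them by Benjamini-Hochberg. The median-centred fits used the same loci and settings. The calling was tested on simulated data. Where a listed symbol had more than 1 locus, the locus with the highest mean was used. Errors are SD over samples or SE of a fit. The authors' own count test, DESeq2, could not be used, since TPM holds no counts.

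Every member is named. From each list of related genes, at most the 3 called genes with the smallest p in PLM versus SNI are named, plus genes a result turns on (Slc12a5, Slc12a2 and Itpr1 were added with their values seen), and 3 listed genes are not reported here. For each member past the study's thresholds, the 3 loci with the nearest profile are named. The members, the 20 gene lists and the tests were chosen with earlier results of these data known. Alternatives tried were another pseudocount (0.1), other filters, a fit to all 9 samples, quantile normalization, rescaling without mitochondrial genes, a replicate block and leaving out each sample. Lipid, protein and behavioural measurements were not analysed here.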

Additional observations from a re-analysis of the deposited data

How the results depend on the processing

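The count of 2 members called in PLM versus SNI as deposited, Ca12 and Ca6, stayed at 2 with a pseudocount of 0.1, with no filter on low values and with the filter taken over 9 samples. It was 1 with at least 1 TPM required in every sample (Ca6, with Ca12 and Ca13 not tested there) and 1 with the study's thresholds (Ca12). It was 0 in the fit to all 9 samples, 0 after quantile normalization, 0 after rescaling without the mitochondrial protein genes and 0 median-centred. Leaving out each sample in turn gave 0 to 2: Ca6 alone without PLM replicate 1 or 3, Ca12 alone without SNI replicate 3, Ca6 and Car10 without SNI replicate 2, and 0 without PLM replicate 2 or SNI replicate 1. The adjusted p over all alternatives run ran from 0.0175 to 0.143 for Ca12 and from 0.00927 to 0.141 for Ca6, and their log2 fold changes were below 0 in each. The median-centred count of 0 was 2 on the values as deposited and 0 under its other alternatives. The counts of 0 in SNI versus JA and PLM versus JA were 0 under every alternative run, leaving out each sample included.

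With the replicate number as a block, limma called 0 members in PLM versus SNI, with adjusted p of 0.101 for Ca12 and 0.0870 for Ca6. The numbers share only a name: deviations of samples with the same number correlated at -0.05 to 0.13 across loci, so the block result is not a pairing.

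Members whose sign changed were never past the threshold. In PLM versus SNI, Ca8 became 0.19 after quantile normalization, 0.0762 rescaled without mitochondrial genes and 0.19 median-centred, Car7 0.0514 and 0.0550 (quantile, median-centred), and Ca14 0.0339 and 0.0808. In SNI versus JA, Ca8 became -0.0481, -0.00822 and -0.0512, Ca11 -0.0410, -0.00999 and -0.0441 (in the order quantile, rescaled, median-centred), and Car2 -0.00528 and -0.0157 (quantile, median-centred). In PLM versus JA, Car10 became 0.0786, 0.0181 and 0.0871. Leaving out single samples moved Ca8 between -0.19 and 0.0409 and Ca11 between -0.0407 and 0.15 in PLM versus SNI. In SNI versus JA it moved Ca8 between -0.0434 and 0.17, Car2 between -0.0868 and 0.26, Ca11 between -0.0458 and 0.22, Ca13 between -0.43 and 0.50 and Ca5b between -0.23 and 0.0993. In PLM versus JA it moved Car10 between -0.16 and 0.14, Ca8 between -0.12 and 0.0962 and Car7 between -0.0169 and 0.34. The causes were not tested. With 3 samples a group and no read depth, low members such as Ca12 and Ca13 carry counting error that cannot be given.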
